A study of Saccharomyces cerevisiae with 16 samples.

Results

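Budding yeast (Saccharomyces cerevisiae) tunes its transcription to oxygen, heme and sterol through a small circle of DNA-binding proteins, and 10 genes of that circle are described here: HAP1, HAP2, HAP3, HAP4, HAP5, ROX1, MOT3, UPC2, ECM22 and SET4. They were chosen by name and known role, as heme and respiration activators or as hypoxic and sterol regulators, out of 6692 genes in the deposited table. The rule sets no threshold on a measured value, but it was drawn up with measured values of these samples in view. The number of these genes that passed a test is therefore a description and supports nothing about the set. All 10 were found and all 10 passed the filter on low counts, which left 5876 genes.

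Polyadenylated RNA was sequenced from 16 samples in a 2 by 2 design with 4 replicates, numbered 2 to 5, in each group. The groups are WT (labelled wild type), H113N (histone H3 carrying asparagine in place of histidine at the numbered residue, labelled H3H113N), WT-off, a strain in which YFH1 is turned off (labelled p(GAL1)-YFH1), and H113N-off, which carries both (labelled H3H113N p(GAL1)-YFH1). YFH1 encodes frataxin, a mitochondrial protein of iron-sulfur cluster assembly, and both -off strains carry it behind the GAL1 promoter. Turning the gene off therefore cannot be told apart from building the strain. The protocol moves cells from YPG to SC medium for 44 h at 30 °C with repeated dilution; it speaks of the YFH1-off cells but stands with every sample. The labels give neither the strain background nor the number of clones. Nothing says that the replicates were separate cultures, so the p-values measure the spread between these samples, which may be technical.

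Heme is made only when oxygen and iron are both at hand, and yeast reads it as a sign of air. With heme bound, Hap1, a zinc-cluster protein, activates genes of respiration and the ROX1 gene. Hap2, Hap3 and Hap5 bind the CCAAT box together, and Hap4 joins them to supply the activation domain and is known as the limiting, regulated subunit. Rox1, an HMG-box repressor, and Mot3, a zinc-finger repressor, keep hypoxic genes silent in air through the Tup1-Cyc8 corepressor. Upc2 and Ecm22 are paralogous zinc-cluster activators of sterol genes, of which Upc2 also drives anaerobic cell wall genes when sterol runs low, and Set4 is a SET-domain protein known to be scarce in air and to accumulate when oxygen is limiting.

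CCAAT or ATTGTT stands in the promoter windows of HAP1, ROX1, HAP4, SET4, MOT3 and ECM22, which were called on YFH1 shutoff in WT. It stands in those of HAP3 and HAP5 too, which were not called. UPC2, called, and HAP2, not called, hold neither word. The share of all windows with either word was not counted, so a link of the words to the calls was not tested. Shown are the 4 called holders of a word with the largest changes, HAP1, ROX1, HAP4 and SET4, and not MOT3 and ECM22. Each run is the RefSeq R64 genome from 250 bases before to 50 bases after the A of the start codon, read on the coding strand, and sacCer3 is the build named in the submitters' processing notes. Capitals mark CCAAT (the Hap2/3/4/5 box) or ATTGTT (the Rox1 core) on either strand, so that ATTGG and AACAAT are the same words read from the other strand.
HAP1 (chrXII:646165-646464, plus strand): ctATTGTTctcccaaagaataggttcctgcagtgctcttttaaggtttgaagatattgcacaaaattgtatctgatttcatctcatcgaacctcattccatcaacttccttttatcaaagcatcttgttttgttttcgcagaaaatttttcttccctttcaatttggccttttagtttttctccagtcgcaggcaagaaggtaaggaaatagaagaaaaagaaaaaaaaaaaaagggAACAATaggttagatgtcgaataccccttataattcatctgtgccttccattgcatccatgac
ROX1 (chrXVI:679443-679742, plus strand): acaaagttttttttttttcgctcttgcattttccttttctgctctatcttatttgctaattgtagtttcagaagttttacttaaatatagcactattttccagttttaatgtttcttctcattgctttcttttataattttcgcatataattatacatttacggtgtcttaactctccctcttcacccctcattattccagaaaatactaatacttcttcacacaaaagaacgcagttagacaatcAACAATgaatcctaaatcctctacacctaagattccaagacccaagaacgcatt
HAP4 (chrXI:231977-232276, plus strand): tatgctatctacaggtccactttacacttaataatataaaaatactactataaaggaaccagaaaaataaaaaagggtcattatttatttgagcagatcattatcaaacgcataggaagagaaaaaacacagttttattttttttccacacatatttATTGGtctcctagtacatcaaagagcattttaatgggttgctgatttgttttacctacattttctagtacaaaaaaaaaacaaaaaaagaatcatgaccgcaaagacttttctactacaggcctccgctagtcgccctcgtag
SET4 (chrX:224805-225104, plus strand): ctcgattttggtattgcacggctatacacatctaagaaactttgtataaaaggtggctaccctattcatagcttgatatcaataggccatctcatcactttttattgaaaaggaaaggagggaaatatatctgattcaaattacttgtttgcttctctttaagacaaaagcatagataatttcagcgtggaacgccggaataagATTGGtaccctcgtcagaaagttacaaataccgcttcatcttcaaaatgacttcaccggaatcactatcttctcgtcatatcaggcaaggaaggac
CCAAT stood in 4 of the 10 regulators' windows (HAP3, HAP4, ECM22 and SET4) and in 43.3% of the 6001 windows of all protein-coding genes. ATTGTT stood in 4 of 10 (HAP1, HAP5, ROX1 and MOT3) and in 35.2% of all windows. The ROX1 match began 4 bases before the start codon and ran into it, so it does not lie wholly upstream. The HAP5 match began 16 bases before the start codon, and those of HAP1 began 248 and 13 bases before it. In HAP1 the first ATTGTT opens the 9 bases ATTGTTCTC, a longer word chosen after the match was seen, which 0.717% of all windows held and no other of the 10 did. Neither the Hap1 word (CGG, any 3 bases, TA, any base, CGG; 0.133% of windows) nor the sterol response element TCGTATA (4.15%) occurred in the 10 windows on either strand. In windows reaching 500 bases before the start codon, a length tried after these matches were seen, CCAAT stood in 5 of 10 (62.4% of all), ATTGTT in 7 of 10 (48.9%), TCGTATA in 1 of 10, HAP4 (7.0%), and the Hap1 word in none (0.35%). In that longer window ROX1 held ATTGTT 464 and 393 bases before the start codon, outside the printed run. The word at 464 shares 2 bases with a CCAAT, both on the minus strand. No other words overlapped in either set of windows. A match is a string of letters, not a shown binding site.

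Total counts ran from 6694390 to 10663540 per library, and 3 counts, taken as the floor, correspond to 0.279 to 0.487 CPM (counts scaled to library size, here with TMM factors). YFH1 itself measured 63.5 ± 3.31 CPM in WT against 7.16 ± 1.29 CPM in WT-off, and 51.8 ± 5.06 CPM in H113N against 10.6 ± 1.74 CPM in H113N-off (mean ± SD, n = 4 each), as the labels say. It fell by 3.14 on the log2 scale in WT and by 2.3 in H113N (interaction 0.84, SE 0.17, adjusted p = 0.00113 by edgeR), and the part of this in the differences between the genotypes below was not tested. Scaling by library size alone shifted the all-gene median (log2) of the shutoff in WT from 0.0087 to -0.11, and that of H113N-off against WT-off from 0.0055 to 0.13. Higher calls then made up 30.9% of all calls on shutoff in WT in place of 49.5%, and 37.2% in place of 57.6% on shutoff in H113N. They made up 66.1% in place of 49.7% in H113N against WT, 73.9% in place of 51.9% in H113N-off against WT-off, and 65.9% in place of 55.2% in the interaction. Under that scaling no called regulator changed direction in any comparison. The library WT replicate 2 stood apart from the other WT libraries: its counts differed from theirs by a chi-square of 53 to 74.7 per degree of freedom, where theirs differed from one another by 4.15 to 8.38. It was the highest WT library in 2 of the 10 regulators and the lowest in 5, beside 37.3% and 37.4% of all genes. Without it, all 7 regulators called on shutoff in WT were still called, at log2 fold changes of 5.07 (SET4), 2.09 (UPC2), 1.83 (HAP1), 1.47 (ROX1), 0.79 (ECM22), -2.34 (HAP4) and -0.63 (MOT3), and the regulators whose calls it changes are given below. H113N replicate 3 differed from the other H113N libraries by a chi-square of 16.7 to 32 per degree of freedom. Those libraries differed from one another by 6.03 to 15.

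Shutoff here is the contrast of an -off strain with its partner strain, which includes the building of the strain. In WT the transcripts of most of the regulators themselves differed in that contrast. Those of SET4, UPC2, HAP1, ROX1 and ECM22 rose, those of HAP4 and MOT3 fell, and those of HAP2, HAP3 and HAP5 did not pass the test. That is 7 of 10 regulators called (edgeR quasi-likelihood test, Benjamini-Hochberg adjusted p under 0.05 over all genes), 5 higher and 2 lower, beside 49.5% of all tested genes, 24.5% higher and 25% lower. The median absolute log2 fold change was 1.17 over the 10 and 0.234 over all genes. Of the 10, 8 had no overlap between the libraries of both groups, beside 42.5% of all genes. The same shutoff in H113N called 2 of 10, HAP1 and ROX1, both higher, beside 20.6% of all genes, 11.8% higher and 8.73% lower, a share near the background. There the median absolute log2 fold change was 0.152 over the 10 and 0.12 over all genes, and 4 of 10 had no overlap beside 27.3% of all genes.

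**Figure D1:**
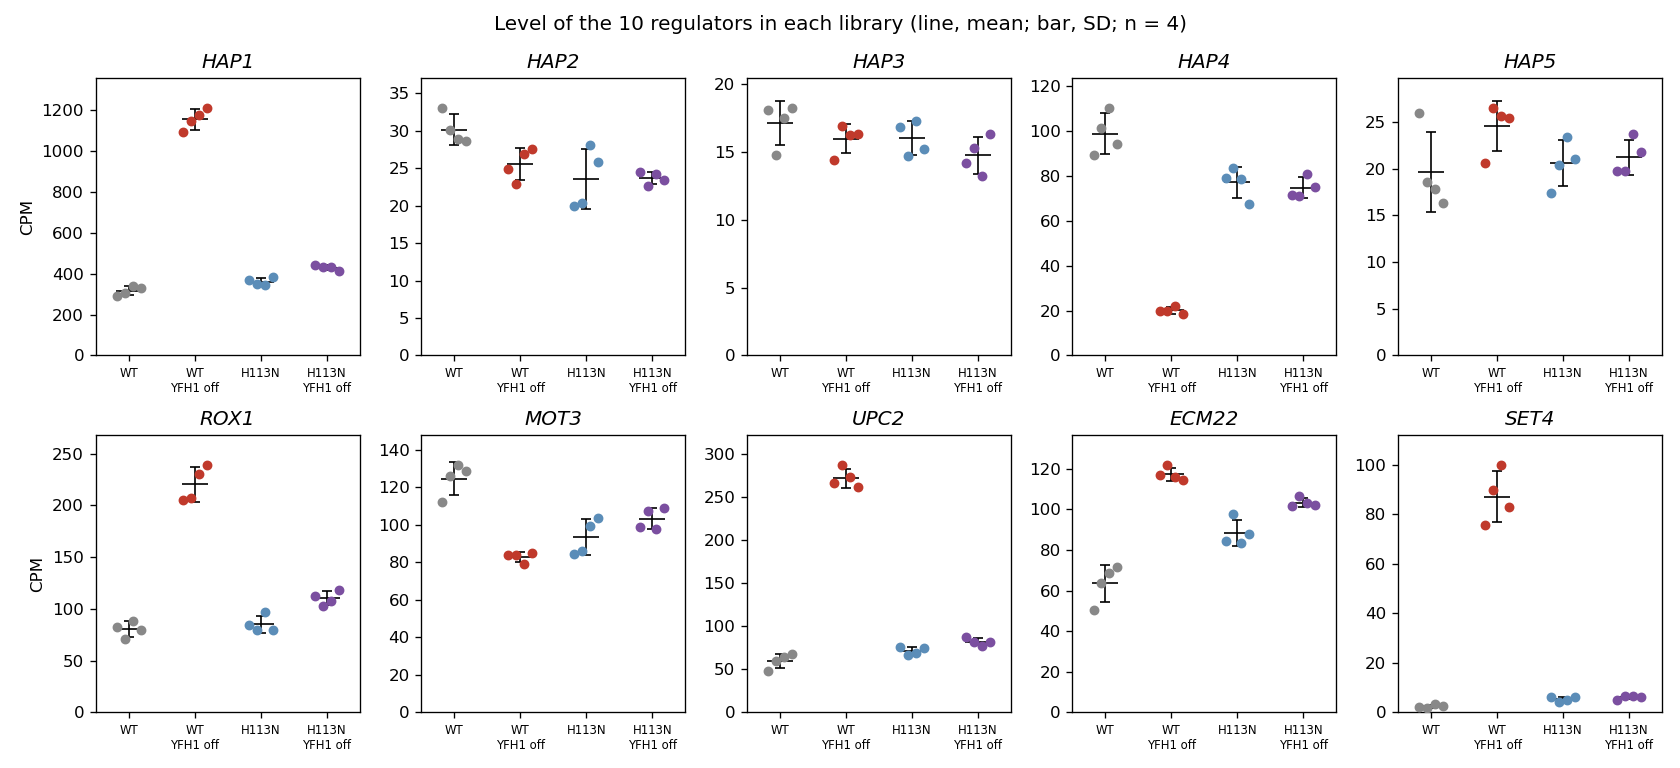
Level of each regulator in CPM (vertical axis, from 0, a separate scale for each panel) in the 4 libraries of each group; points are libraries, the line is the mean and the bar the SD. The WT-off libraries lie apart from those of the other 3 groups in HAP1, HAP4, ROX1, UPC2, ECM22 and SET4, and overlap at least 1 of them in HAP2, HAP3, HAP5 and MOT3.

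HAP1, the heme-responsive activator, was the most abundant of the 10 per length in WT-off. It measured 289.7, 305, 338 and 332 CPM in the WT libraries and 1092, 1146, 1176 and 1211 CPM in those with YFH1 off. Each library with YFH1 off held over 3 times the level of each WT library. The mean went from 316 ± 22.7 CPM to 1157 ± 50.5 CPM (SD, n = 4 each), 3.66-fold higher (log2 fold change 1.87, SE 0.0572, adjusted p = 1.37e-13 by edgeR). In H113N it measured 370.4, 349, 346 and 383 CPM, and 443, 433, 431 and 412 CPM with YFH1 off. These groups did not overlap either, but the rise was 1.19-fold (log2 fold change 0.25, SE 0.0556, adjusted p = 0.00426 by edgeR), smaller than in WT by 1.62 on the log2 scale (interaction, SE 0.0789, adjusted p = 2.20e-10 by edgeR). None of the 10 overlaps another RefSeq gene in R64, but the HAP1 gene (chrXII:646415-650923, plus strand) shares its last 100 bases with the Ty1 element YLRWTy1-3 (chrXII:650824-656743), an insertion of the reference strain known to weaken the activator. Of the 4460 words of 50 bases in HAP1, 55 (1.23%) occur more than once in the genome, and in the other regulators none does. Which HAP1 allele these strains carry was not tested.

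The 4 subunits of the CCAAT complex parted ways, and only the activating subunit was called on shutoff in WT. HAP4 measured 89.3, 101, 110.3 and 94.4 CPM in WT and 20, 20, 22.1 and 18.5 CPM with YFH1 off. All 4 libraries with YFH1 off lay below every WT library. The mean fell from 98.9 ± 9.09 CPM to 20.1 ± 1.47 CPM (SD, n = 4 each), 4.9-fold lower (log2 fold change -2.29, SE 0.0858, adjusted p = 1.38e-12 by edgeR). In H113N HAP4 measured 78.9, 83.5, 78.5 and 67.6 CPM with YFH1 on and 71.4, 71, 81.1 and 75.2 CPM with YFH1 off. These ranges overlapped, and the difference did not pass the test (log2 fold change -0.045, SE 0.076, adjusted p = 0.74 by edgeR; 95% interval -0.21 to 0.12). The shutoff effect thus differed between the genotypes by 2.25 on the log2 scale (interaction, SE 0.115, adjusted p = 3.49e-10 by edgeR).

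The DNA-binding subunits passed no test on shutoff in either genotype. HAP2 measured 30.2 ± 2.02 CPM in WT against 25.6 ± 2.12 CPM in WT-off, and 23.6 ± 4.05 CPM in H113N against 23.7 ± 0.812 CPM in H113N-off (SD, n = 4 each). Its WT libraries (28.7 to 33 CPM) lay above those with YFH1 off (22.9 to 27.6 CPM), yet the change on shutoff in WT did not pass the test (log2 fold change -0.23, SE 0.10, adjusted p = 0.0657 by edgeR). It passed without H113N replicate 2 (-0.23, adjusted p = 0.0479 by edgeR) or H113N replicate 4 (-0.23, adjusted p = 0.0378 by edgeR), libraries that enter only the shared spread. It also passed with only the groups compared (-0.23, adjusted p = 0.0444 by edgeR) and with library size only (-0.35, adjusted p = 0.00818 by edgeR). HAP3 stood between 14.8 and 17.1 CPM in the means of the 4 groups and passed no test. Its log2 fold changes on shutoff were -0.10 (95% interval -0.30 to 0.098) in WT and -0.12 (95% interval -0.32 to 0.076) in H113N. HAP5 measured 25.9, 18.6, 17.9 and 16.3 CPM in WT and 20.6, 26.5, 25.6 and 25.4 CPM with YFH1 off. WT replicate 2 stood above the other 3 WT libraries and inside the range of the libraries with YFH1 off. The change did not pass the test (log2 fold change 0.32, SE 0.133, adjusted p = 0.0575 by edgeR), but it did without WT replicate 2 (0.48, adjusted p = 0.00114 by edgeR) or without WT-off replicate 2 (0.39, adjusted p = 0.0333 by edgeR), and with DESeq2 (0.32, adjusted p = 0.0472). Without WT replicate 2 the interaction of HAP5 passed too (-0.44, adjusted p = 0.0254 by edgeR, against -0.28, adjusted p = 0.297 by edgeR, with all libraries).

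Per kilobase of coding length, HAP4 was the highest of the complex's 4 subunits in 3 groups and the lowest in WT-off. It stood at 59.4 ± 5.46 CPM per kb in WT, 46.3 ± 4.04 in H113N, 44.9 ± 2.81 in H113N-off and 12.1 ± 0.883 in WT-off (SD, n = 4 each). Within a library, the level of HAP4 per kb divided by the mean of HAP2, HAP3 and HAP5 was 1.73 ± 0.271 in WT, 0.356 ± 0.0343 in WT-off, 1.48 ± 0.224 in H113N and 1.45 ± 0.0782 in H113N-off (SD, n = 4 each). The ratio lay above 1 in every library of 3 groups and at 0.312 to 0.389 in the 4 libraries of WT-off.

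**Figure D2:**
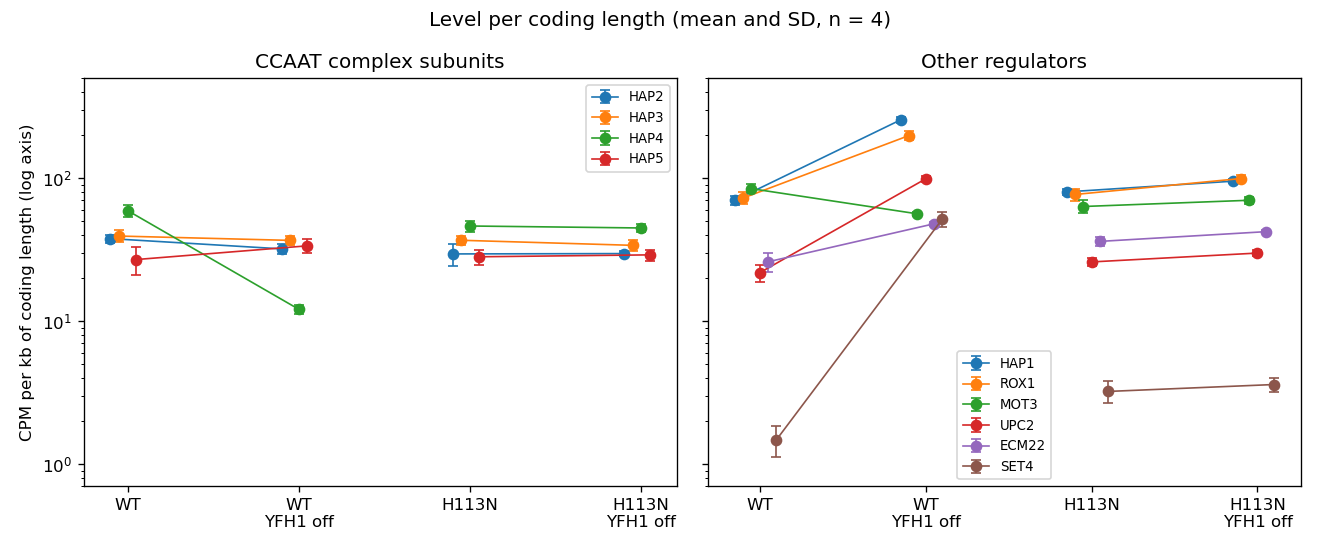
Level in CPM per kb of coding length (vertical log axis) of the CCAAT complex subunits (left) and of the other regulators (right) in the 4 groups; points are means, bars the SD over 4 libraries, and lines join YFH1 on and off within a genotype. HAP4 drops below its partners only in WT-off, at 12.1 CPM per kb, and SET4 climbs there to 51.7 CPM per kb.

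The repressors moved in opposite directions on shutoff in WT. ROX1 measured 82.4, 70.6, 88.8 and 80 CPM in WT and 205, 207, 230.1 and 239 CPM with YFH1 off, with no overlap. It was 2.74-fold higher with YFH1 off (log2 fold change 1.45, SE 0.0806, adjusted p = 1.71e-10 by edgeR). In H113N it measured 84.3, 79.6, 97.1 and 79.9 CPM and, with YFH1 off, 112, 103, 107 and 119 CPM, again without overlap, and rose 1.29-fold (log2 fold change 0.37, SE 0.0801, adjusted p = 0.00343 by edgeR). The rise was smaller than in WT by 1.09 on the log2 scale (interaction, SE 0.113, adjusted p = 1.58e-06 by edgeR). MOT3 measured 112, 126, 132 and 128 CPM in WT and 84.1, 84.1, 79.1 and 84.9 CPM with YFH1 off. Every library with YFH1 off lay below every WT library, and the fall was 1.5-fold (log2 fold change -0.59, SE 0.0707, adjusted p = 3.00e-06 by edgeR). In H113N MOT3 went from 93.4 ± 9.56 CPM to 103 ± 5.71 CPM (SD, n = 4 each), groups that overlapped (log2 fold change 0.14, SE 0.070, adjusted p = 0.168 by edgeR), and the interaction was 0.73 (SE 0.0995, adjusted p = 3.00e-05 by edgeR).

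UPC2 and ECM22, the paralogous sterol regulators, both rose on shutoff in WT. UPC2 measured 48, 59.8, 64.1 and 67.3 CPM in WT and 265, 287, 273 and 261 CPM with YFH1 off, 4.54-fold higher (log2 fold change 2.18, SE 0.083, adjusted p = 1.64e-12 by edgeR). ECM22 measured 50.6, 63.6, 68.7 and 71.5 CPM in WT and 117, 122, 116 and 114 CPM with YFH1 off, 1.84-fold higher (log2 fold change 0.88, SE 0.0816, adjusted p = 1.18e-07 by edgeR). Neither gene's groups overlapped. In H113N, UPC2 went from 71.2 ± 4.28 CPM to 82.1 ± 4.36 CPM and ECM22 from 88.4 ± 6.49 CPM to 103 ± 2.09 CPM (SD, n = 4 each). There both differences missed the threshold although the libraries did not overlap (UPC2 log2 fold change 0.21, SE 0.0817, adjusted p = 0.0904 by edgeR; ECM22 log2 fold change 0.23, SE 0.0798, adjusted p = 0.0549 by edgeR). These calls hang on single libraries and on the fit. UPC2 passed without WT replicate 2 (0.20, adjusted p = 0.00963 by edgeR). ECM22 passed without WT replicate 2 (0.23, adjusted p = 0.00259 by edgeR), without H113N replicate 3 (0.28, adjusted p = 0.0287 by edgeR), with DESeq2 (0.22, adjusted p = 0.0442) and with a replicate block (0.23, adjusted p = 0.0494 by edgeR). WT replicate 2 is not in this contrast and enters through the shared spread, and leaving it out hardly moved either estimate. With only the groups compared, both passed (UPC2 0.18, adjusted p = 0.0424; ECM22 0.20, adjusted p = 0.0188, by edgeR), which takes the count in H113N from 2 to 4 of 10. The interaction was -1.98 (SE 0.115, adjusted p = 2.06e-09 by edgeR) for UPC2 and -0.66 (SE 0.114, adjusted p = 3.07e-04 by edgeR) for ECM22.

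The balance of the pair can be read within each library from levels per kb. The ratio of UPC2 to ECM22 was 0.839 ± 0.00531 in WT, 0.722 ± 0.0819 in H113N and 0.709 ± 0.0445 in H113N-off (SD, n = 4 each). In WT-off it was 2.06 ± 0.0392. ECM22 was thus the higher of both per length in all 12 libraries of 3 groups, and UPC2 in all 4 libraries of WT-off.

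SET4 had the widest range of the 10. It was near the bottom of detection in WT, with 15 to 27 counts per library, and measured 2.19, 1.86, 3.26 and 2.6 CPM there and 75.5, 89.6, 99.8 and 82.9 CPM with YFH1 off, where it drew 528 to 872 counts. The rise was 34.9-fold (log2 fold change 5.12, SE 0.145, adjusted p = 6.42e-14 by edgeR). In H113N it measured 6.07, 4.26, 5.04 and 6.31 CPM and, with YFH1 off, 5.08, 6.55, 6.52 and 6.07 CPM. These ranges overlapped (log2 fold change 0.16, SE 0.16, adjusted p = 0.549 by edgeR; 95% interval -0.18 to 0.50), and the interaction was -4.96 (SE 0.229, adjusted p = 1.19e-10 by edgeR).

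**Figure D3:**
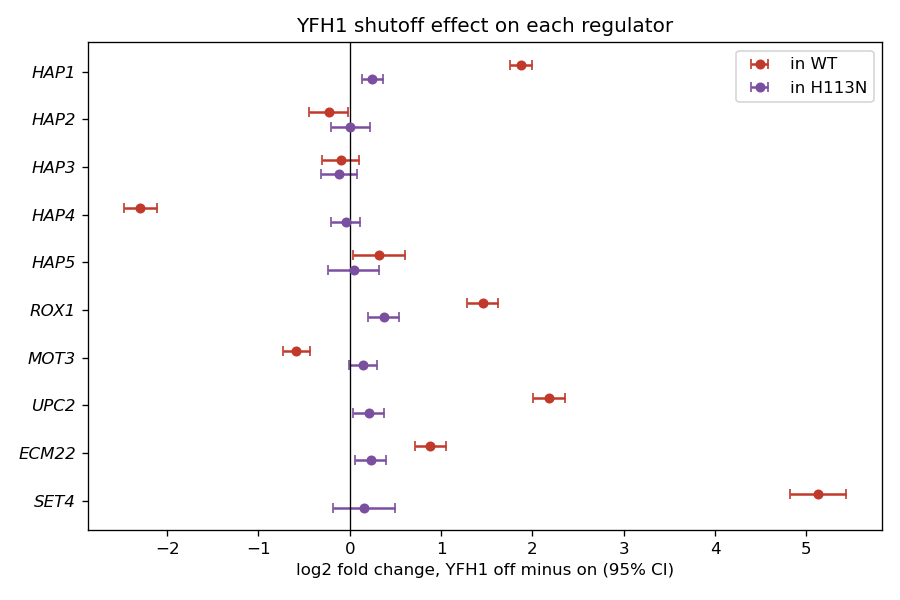
Log2 fold change of each regulator on YFH1 shutoff (horizontal axis) in WT (red) and in H113N (purple); points are edgeR estimates from 4 against 4 libraries and bars their 95% intervals. In WT the values run from -2.29 for HAP4 to 5.12 for SET4, and in H113N from -0.12 for HAP3 to 0.37 for ROX1.

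With YFH1 on, the genotypes differed by a median absolute log2 fold change of 0.302 over the 10, beside 0.201 over all genes. H113N against WT called 7 of 10 regulators, 4 higher and 3 lower, beside 46.2% of all genes, 23% higher and 23.2% lower. Higher in H113N were SET4 (log2 fold change 1.13, SE 0.194, adjusted p = 1.84e-04 by edgeR), ECM22 (log2 fold change 0.47, SE 0.0818, adjusted p = 1.88e-04 by edgeR), UPC2 (log2 fold change 0.25, SE 0.0832, adjusted p = 0.0211 by edgeR) and HAP1 (log2 fold change 0.19, SE 0.0557, adjusted p = 0.00937 by edgeR). Lower were MOT3 (log2 fold change -0.41, SE 0.070, adjusted p = 1.52e-04 by edgeR), HAP4 (log2 fold change -0.36, SE 0.0756, adjusted p = 0.00105 by edgeR) and HAP2 (log2 fold change -0.35, SE 0.10, adjusted p = 0.00886 by edgeR). The UPC2 libraries of both genotypes overlapped, and its call was lost without H113N replicate 2 (0.22, adjusted p = 0.0605 by edgeR), without H113N replicate 5 (0.23, adjusted p = 0.055 by edgeR) and with only the groups compared (0.25, adjusted p = 0.0767 by edgeR). Without WT replicate 2 it stood at 0.16 (adjusted p = 0.0396 by edgeR). Of the 10, 6 had no overlap between the genotypes, beside 37.1% of all genes. This comparison and the shutoff in WT use the same WT libraries.

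With YFH1 off, H113N cells differed from WT cells in 6 of 10 regulators, 2 higher and 4 lower, beside 52.4% of all genes, 27.2% higher and 25.2% lower, a share near the background. HAP4 (3.71-fold; log2 fold change 1.89, SE 0.0859, adjusted p = 2.92e-11 by edgeR) and MOT3 (1.24-fold; log2 fold change 0.32, SE 0.0707, adjusted p = 0.00133 by edgeR) were higher in H113N. SET4 (14.3-fold; log2 fold change -3.84, SE 0.124, adjusted p = 5.69e-13 by edgeR), UPC2 (3.31-fold; log2 fold change -1.72, SE 0.0808, adjusted p = 4.46e-11 by edgeR), HAP1 (2.69-fold; log2 fold change -1.43, SE 0.0563, adjusted p = 5.56e-12 by edgeR) and ROX1 (2.0-fold; log2 fold change -1.0, SE 0.0789, adjusted p = 2.17e-08 by edgeR) were lower. ECM22 did not overlap between the genotypes but missed the threshold (log2 fold change -0.18, SE 0.0793, adjusted p = 0.0655 by edgeR). It passed without WT replicate 2 (-0.18, adjusted p = 0.00502 by edgeR) or WT replicate 5 (-0.18, adjusted p = 0.0455 by edgeR), libraries that are not in this contrast and enter through the shared spread. It also passed with DESeq2 (-0.19, adjusted p = 0.0485) and with only the groups compared (-0.18, adjusted p = 0.00276 by edgeR). In all, 7 of 10 had no overlap, beside 53.6% of all genes. The interaction called 7 of 10, with 2 more positive in H113N (HAP4 and MOT3) and 5 more negative, beside 30.8% of all genes, 17% more positive and 13.8% more negative.

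In the order of levels per kb (mean ± SD, n = 4 each), WT placed MOT3 (84.6 ± 5.95 CPM per kb), ROX1 (72.7 ± 6.82), HAP1 (70.1 ± 5.03) and HAP4 (59.4 ± 5.46) at the top. The ranges of neighbours in that run overlapped. HAP3 (39.4 ± 3.74 CPM per kb) and HAP2 (37.8 ± 2.54) followed with overlapping ranges. HAP5 (27 ± 5.85 CPM per kb), ECM22 (26 ± 3.77) and UPC2 (21.8 ± 3.08) came next, again overlapping, and SET4 (1.47 ± 0.359) stood last and apart. In WT-off the order became HAP1 (256 ± 11.2 CPM per kb), ROX1 (199 ± 15.2) and UPC2 (99 ± 4.1), each clear of the next. MOT3 (56.4 ± 1.81 CPM per kb), SET4 (51.7 ± 6.14) and ECM22 (48 ± 1.32) followed with overlapping ranges. HAP3 (36.7 ± 2.45 CPM per kb), HAP5 (33.6 ± 3.66) and HAP2 (32 ± 2.66) overlapped too, and HAP4 (12.1 ± 0.883) was last and apart. In H113N, HAP1 and ROX1 led with overlapping ranges, at 80.3 ± 3.96 and 77 ± 7.41 CPM per kb. They led in H113N-off as well, at 95.3 ± 2.9 and 99.5 ± 6.11 CPM per kb, and SET4 was last in both groups (3.22 ± 0.564 and 3.6 ± 0.408).

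The regulators lie on 9 chromosomes, HAP1 and ECM22 sharing the right arm of chromosome XII. The 414 tested genes of chromosome II, where HAP3 lies, had a median log2 difference of 0.21 in H113N against WT and -0.17 on shutoff in H113N, beside -0.011 and 0.032 for the 5462 other genes. HAP3 itself stood at -0.098 and -0.12 in those comparisons. For the other 9 regulators the median of the chromosome lay between -0.061 and 0.063 in all 5 comparisons. Of the genes next to the 10 regulators in R64, 18 were tested and 11 (61.1%) were called on shutoff in WT, beside 49.5% of all genes. Next to SET4, the meiotic kinase gene IME2 stood at a log2 fold change of 0.63 (SE 0.124, adjusted p = 0.000484 by edgeR) and PAM16, a mitochondrial import motor gene, at -0.31 (SE 0.0533, adjusted p = 0.000148 by edgeR), beside 5.12 for SET4.

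The genes that these regulators are known to act on were counted in lists taken from textbook accounts. Besides CYC1 and CYT1, named below, the lists share TIR1 (Rox1 and anaerobic Upc2), ERG11 (Hap1 and sterol synthesis), CYC7 (Hap1 and Rox1) and SUT1 (Rox1 and partner regulators). The counts of these lists are therefore not separate. All 20 genes given as targets of Hap2/3/4/5 were tested, and 19 fell and none rose on shutoff in WT, with a median log2 fold change of -2.41 beside 0.0087 for all genes, of which 25% fell and 24.5% rose. WT replicate 2 was the highest WT library in 19 of the 20 (and in 37.3% of all genes), and its part in the list's values is given by leaving it out: 19 still fell, with a median of -2.18. In H113N, where HAP4 did not pass the test, 17 fell and none rose, with a median of -0.73 beside 0.023 for all genes, of which 8.73% fell. The interaction called 17, all more positive, beside 17% of all genes. The median of the list there was 1.5 beside 0.011 for all genes, and 1.19 without WT replicate 2. Of the 9 genes given as activated by Hap1, whose own transcript rose, 7 fell and none rose in WT (median -1.19; without WT replicate 2, the highest WT library in 7 of them, 6 fell and the median was -1.09), and in H113N 4 fell and 1 rose (median -0.27). CYC1, cytochrome c, and CYT1, cytochrome c1, are in both lists. CYC1 fell from 27.7 ± 5.55 CPM to 0.341 ± 0.286 CPM in WT (SD, n = 4 each; adjusted p = 2.42e-11 by edgeR); the WT-off libraries held 0, 3, 2 and 6 counts, at or near the floor, so no fold is given. CYT1 measured 157, 83.6, 99.7 and 97.6 CPM in the WT libraries, highest in replicate 2, and 5.29, 7.96, 7.78 and 4.44 CPM in WT-off, without overlap (log2 fold change -4.12, SE 0.209, adjusted p = 5.61e-11 by edgeR). In H113N they fell by 1.75 (SE 0.178, adjusted p = 3.67e-06 by edgeR) and 1.05 on the log2 scale (SE 0.166, adjusted p = 2.50e-04 by edgeR).

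Of 10 genes given as repressed by Rox1, whose transcript rose, 4 rose and 2 fell in WT, a share near the 49.5% of all genes called (median 0.091). Without WT replicate 2, 5 rose and 2 fell, and the median was 0.51. In H113N 5 rose and 2 fell, beside 20.6% of all genes called (median 0.31). TIR1, an anaerobic cell wall mannoprotein, rose from 2.04 ± 0.685 CPM to 109 ± 14.6 CPM in WT (log2 fold change 5.73, SE 0.20, adjusted p = 5.34e-13 by edgeR) and ANB1, the hypoxic form of eIF5A, from 5.26 ± 1.42 CPM to 69.4 ± 9.69 CPM (log2 fold change 3.72, SE 0.16, adjusted p = 6.79e-12 by edgeR; SD, n = 4 each). HEM13, the oxygen-dependent coproporphyrinogen oxidase of heme synthesis, fell from 99.7 ± 11 CPM to 49.7 ± 8.35 CPM (log2 fold change -1.01, SE 0.14, adjusted p = 1.30e-05 by edgeR), and OLE1, the fatty acid desaturase, from 2432 ± 684 CPM to 1800.2 ± 154 CPM (log2 fold change -0.43, SE 0.157, adjusted p = 0.03 by edgeR; SD, n = 4 each). The OLE1 call was lost in 6 of 23 alternatives: with only the groups compared and without WT replicate 3, 4 or 5 or WT-off replicate 3 or 4 (adjusted p = 0.0561 to 0.1 by edgeR). The list held members that moved with the repressor's transcript and members that moved against it.

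The 10 anaerobic genes given as activated by Upc2 all rose in WT, beside 24.5% of all genes, with a median log2 fold change of 3.08, which is the same with DAN1 at the bound set by the floor of 3 counts. DAN1, a cell wall mannoprotein, had at most 3 counts in a WT library and 304 ± 37.4 CPM in WT-off (SD, n = 4), so no fold is given. It stood at 2.15 ± 0.387 CPM in H113N and 9.86 ± 1.26 CPM in H113N-off. In H113N 8 of the 10 rose, beside 11.8% of all genes (median 0.75), and the interaction called 9, all more negative, beside 13.8% (median -2.66). DAN2 and DAN3 of this list appear in the deposited table as PAU23 and PAU24, members of a large family of near-identical genes, and their counts are uncertain. The 8 sterol synthesis genes given as targets of Upc2 and Ecm22 split evenly in WT, 4 higher and 4 lower beside 24.5% and 25% of all genes (median 0.41), and in H113N 5 rose and 2 fell beside 11.8% and 8.73% (median 0.22). ERG3, the sterol C-5 desaturase, rose from 578 ± 110.4 CPM to 3575 ± 187 CPM in WT (log2 fold change 2.63, SE 0.111, adjusted p = 5.62e-12 by edgeR), and NCP1, the reductase that serves Erg11, from 661 ± 69.2 CPM to 1969 ± 55.3 CPM (log2 fold change 1.58, SE 0.072, adjusted p = 1.37e-11 by edgeR; SD, n = 4 each). ERG11 itself, the heme-containing lanosterol demethylase, fell from 776 ± 71.9 CPM to 511 ± 36.1 CPM (log2 fold change -0.60, SE 0.0772, adjusted p = 5.69e-06 by edgeR), and ERG10, at the entry of the pathway, from 394 ± 19.8 CPM to 330.2 ± 11 CPM (log2 fold change -0.25, SE 0.0545, adjusted p = 9.51e-04 by edgeR; SD, n = 4 each).

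Of 11 partner regulators (corepressors, chaperones of Hap1, other oxygen and sterol regulators and SET3, the paralog of SET4), 4 rose and 2 fell on shutoff in WT, beside 49.5% of all genes called, and 3 rose and 1 fell in H113N, beside 20.6% (medians 0.045 and 0.094). The share in WT is near the background. HSP82, a chaperone that binds Hap1, rose from 124 ± 34.3 CPM to 302 ± 30.6 CPM in WT (log2 fold change 1.28, SE 0.14, adjusted p = 9.53e-07 by edgeR) and already stood at 396 ± 33.6 CPM in H113N with YFH1 on (SD, n = 4 each). MGA2, a membrane-bound sensor that controls OLE1, rose in WT (log2 fold change 0.69, SE 0.0574, adjusted p = 2.98e-08 by edgeR) and fell in H113N (log2 fold change -0.36, SE 0.0575, adjusted p = 2.90e-04 by edgeR). YDJ1 (log2 fold change -0.19, SE 0.0524, adjusted p = 0.00546 by edgeR) and SPT23, the paralog of MGA2 (log2 fold change -0.12, SE 0.0485, adjusted p = 0.0475 by edgeR), fell slightly in WT, and the SPT23 call was lost in 14 of 23 alternatives (adjusted p = 0.0512 to 0.168 by edgeR), among them those without WT replicate 2, 4 or 5 or WT-off replicate 2, 4 or 5. In H113N against WT 46.2% of all genes were called, 23% higher and 23.2% lower. The calls there were 5 of 9 Hap1 targets (2 higher, 3 lower) and 9 of 20 Hap2/3/4/5 targets (1 higher, 8 lower). They were 6 of 10 Rox1 targets (4 higher, 2 lower) and 7 of 11 partners (5 higher, 2 lower). Counted in either direction these shares lie near that background, but the called Hap2/3/4/5 targets were mostly lower. Of the anaerobic Upc2 targets 8 of 10 were called (7 higher, 1 lower), and of the sterol targets 1 of 8 (lower). Without WT replicate 2 the directions moved to 4 higher and 2 lower for Hap1 targets and to 4 higher and 5 lower for Hap2/3/4/5 targets, and 2 sterol targets were called, both lower. In H113N-off against WT-off 52.4% of all genes were called, 27.2% higher and 25.2% lower. There 8 of 9 Hap1 targets and 18 of 20 Hap2/3/4/5 targets were called, all higher. Also called were 7 of 10 Rox1 targets (2 higher, 5 lower), 10 of 10 anaerobic Upc2 targets (2 higher, 8 lower), 7 of 8 sterol targets (3 higher, 4 lower) and 7 of 11 partners (4 higher, 3 lower).

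**Figure D4:**
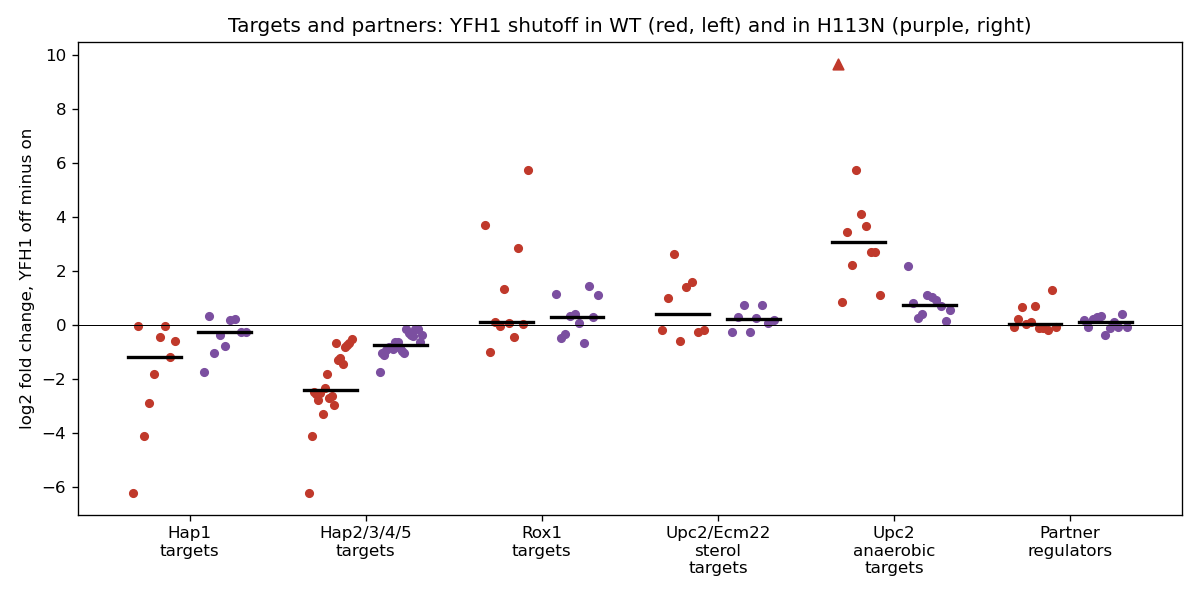
Log2 fold change on YFH1 shutoff (vertical axis) of the genes in each target or partner list, in WT (red, left of each pair) and in H113N (purple, right); points are genes, black lines list medians, and the triangle is DAN1 in WT against the floor of 3 counts, and the lowest point in WT is CYC1, a fitted value that rests on 0 to 6 counts in the WT-off libraries. The Hap2/3/4/5 targets lie below 0 in both genotypes, with medians of -2.41 and -0.73. Without WT replicate 2 the highest of them in WT stood at 0.11.

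The 3 regulators with the widest span of group means of log2 CPM were SET4 (5.03), HAP4 (2.28) and UPC2 (2.19). Among 5213 other genes, likeness was measured by the root mean square difference of centred group means over the 4 groups of 16 libraries. How small such differences are for genes at large was not counted, so whether a near gene shares a regulator was not tested. The pattern nearest to UPC2 was that of DAN4, an anaerobic cell wall mannoprotein gene that is also in the list of its targets (difference 0.0785 log2 units), followed by ARO10, a phenylpyruvate decarboxylase gene (0.178). Nearest to SET4 were PBI1 (0.14) and YPR145C-A (0.434), and nearest to HAP4 were LYS4, the homoaconitase gene of lysine synthesis (0.175), and SST2, which desensitises cells to pheromone (0.177).

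The authors' deposited table gives adjusted p-values for 4 of these comparisons. In the authors' deposited table, the regulators under 0.05 were the same as in the edgeR test in each of the 4 comparisons: 7 on shutoff in WT, 2 on shutoff in H113N, 7 between the genotypes with YFH1 on and 6 between them with YFH1 off. ECM22 lay closest to the threshold in the authors' deposited table, at 0.0504 on shutoff in H113N and 0.0538 between the genotypes with YFH1 off.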

How the data were processed

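Per-gene read counts, whole and unscaled, were deposited by the authors for each library. Per the submitters' processing notes, FastQC, cutadapt, HISAT2, featureCounts and DESeq2 were used with the build sacCer3; versions, annotation, strand and the handling of multi-mapping reads are not given in the sources used here. A second deposited table holds counts divided by 1 size factor per library (signal) and adjusted p-values by the authors, whose model is not stated; it served for gene names and those p-values. Every sample column was assigned (0 left over).

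The members and lists were chosen with earlier results of these data known. Counts were tested in R 4.3.3 with edgeR 4.0.16: filterByExpr (about 1.17 CPM in 4 libraries; 5876 of 6692 genes), TMM factors, 1 mean per group over all 16 libraries, glmQLFit and glmQLFTest on 5 contrasts, with Benjamini-Hochberg adjustment over all tested genes and a threshold of 0.05. SEs are log2 fold changes over the root of the F statistic. Log2 CPM used a prior count of 2. The fit was tested on simulated data. Alternatives were RLE factors, library size only, no filter, at least 10 counts in every library, DESeq2 1.42.0, only the groups compared, a replicate block and each library left out. Named genes are the 10 regulators, YFH1, at most 2 rises and 2 falls per list among called genes (mean log2 CPM 3 or more), and the 2 genes most like each of 3 regulators; IME2 and PAM16 were named as neighbours of SET4 after their values were seen. All 24 pairs of replicates differed beyond counting noise (chi-square per degree of freedom 2.91 to 74.7). Printed 95% intervals are those of the edgeR fit, from the spread between libraries; the floor of 3 counts covers counting error only. RefSeq R64 matched 6005 of 6692 identifiers and gave sequences and coding lengths; gene models hold no UTRs.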

Additional observations from a re-analysis of the deposited data

Results flagged for a closer look

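MOT3 in WT with YFH1 off had 1 library apart from the other 3: replicate 4 at 79.1 CPM beside 84.1, 84.1 and 84.9 CPM. Its gap to the nearest library was 0.86 of the group's range. Of 40 groups examined this was the only one flagged, where chance flags about 1 in 20.

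For 7 regulators the effect of YFH1 shutoff differed between the genotypes by the interaction test (edgeR, adjusted p under 0.05; log2 effect in H113N minus that in WT). The effect was more positive in H113N for HAP4 (2.25) and MOT3 (0.73). It was more negative for HAP1 (-1.62), ROX1 (-1.09), UPC2 (-1.98), ECM22 (-0.66) and SET4 (-4.96). Each kept its sign and its call with any 1 library left out. The smaller loss of YFH1 itself in H113N (interaction 0.84, SE 0.17, adjusted p = 0.00113 by edgeR) goes with all 7, and its part was not tested.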

How the results depend on the processing

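Of 29 called values of the 10 regulators, none reversed under any alternative and 657 of 660 recomputed values kept their call; the 3 that did not were those of UPC2 in H113N against WT with YFH1 on. The counts of called genes stayed within 1.5 times in each comparison. The regulators called on shutoff in H113N went from 2 to 4 with only the groups compared, and ran from 2 to 4 over the single libraries left out (4 without WT replicate 2, which is not in that contrast). Values near 0 that were not called changed sign: HAP2 on shutoff in H113N was -0.00355 with RLE factors, -0.0545 with library size only, -0.0105 with at least 10 counts in every library, -0.00395 with DESeq2 and -0.0241 with only the groups compared (-0.069 to 0.103 with a library left out). With library size only, HAP5 (-0.0166) and ERG10 (-0.00669) on shutoff in H113N, HAP2 (0.0118) and HAP3 (0.00879) in H113N against WT with YFH1 off and the HAP3 interaction (0.0345) changed sign. The SPT23 interaction was -0.00521 with RLE factors, -0.00175 with at least 10 counts and -0.00279 with DESeq2. With a library left out, HAP5 ran from -0.0291 to 0.114 on shutoff in H113N and from -0.00596 to 0.229 in H113N against WT with YFH1 on, and the interactions of HAP3 from -0.0764 to 0.0312 and SPT23 from -0.043 to 0.0352.

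List counts in H113N against WT with YFH1 on moved from 5 Hap1 targets to 3 with library size only and 2 with at least 10 counts, from 9 Hap2/3/4/5 targets to 5 with library size only, from 1 sterol target to 2 with RLE factors, at least 10 counts, DESeq2 or a replicate block and to 0 with only the groups compared, and from 7 partners to 3 with only the groups compared. With YFH1 off, Hap1 targets went from 8 to 5 with at least 10 counts in every library, where fewer genes are tested. With a library left out, these counts ran from 3 to 6 (3 without H113N replicate 2 or 4), 5 to 9 (5 without H113N replicate 3), 0 to 2 and 4 to 7 (4 without H113N replicate 5) with YFH1 on. On shutoff in H113N they ran from 3 to 7 for Hap1 targets and 4 to 7 for sterol targets, lowest without H113N replicate 2 or H113N-off replicate 5, and from 2 to 6 for partners. Hap1 targets ran from 5 to 8 in the interaction, with 5 without H113N replicate 5 or WT-off replicate 4 or 5. The cause was not tested.

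The replicate block called 7, 3, 7, 6 and 7 of the 10 regulators in the 5 comparisons (7, 2, 7, 6 and 7 without it) and changed 1 call, that of ECM22 on shutoff in H113N (0.23, adjusted p = 0.0494 by edgeR). Deviations of same-numbered libraries correlated at -0.173 to 0.228 over 16 pairs, over 0.1 in 6 of them and in no comparison in all 4, so the numbers were not taken to pair the samples. SET4 in WT, at 15 to 27 counts, is limited by depth.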
